A study of Mus musculus with 15 samples.

Results

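Mitochondrial beta-oxidation of fatty acids was followed through 10 genes: Cpt1a, Cpt2 and Crat of the carnitine shuttle, the acyl-CoA dehydrogenases Acadm, Acadl, Acadvl and Acads, and Hadha, Hadhb and Acaa2, which carry out the later steps of the cycle. The genes were chosen by name and function, and every probe set annotated to one of them was taken. This gave 20 probe sets of the 45037 on the array that are not controls, and 10 genes of the 18193 with a probe set of a single symbol. All 20 probe sets entered the tests and none was removed for a low value. Liver RNA had been measured on Affymetrix mouse genome arrays, 1 array for each of 15 mice in 5 diet groups of 3. All animals were males of the inbred strain C57BL/6J, which gains weight readily on fat-rich food, and they were 7 weeks old when the diets began and stayed on them for 9 weeks. HFCC, HFDC and HFGC mice ate food in which fat supplied 60% of the energy and to which 2% of a freeze-dried coffee powder was added, caffeinated for HFCC, decaffeinated for HFDC, and unroasted green coffee with its caffeine for HFGC. HF mice ate the same 60% diet without coffee, and for ND mice fat supplied 10% of the energy. The powders are whole coffee preparations, so that no single constituent was varied alone, and the 3 mice of a group had been picked at random from a larger group according to the methods.

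Long-chain fatty acids cross the inner mitochondrial membrane only as carnitine esters, which the outer carnitine palmitoyltransferase (Cpt1a in liver) makes and the inner enzyme (Cpt2) turns back into acyl-CoA. Inside, each round of beta-oxidation begins with an acyl-CoA dehydrogenase suited to the chain length, goes on through a hydratase and a hydroxyacyl-CoA dehydrogenase, and ends with a thiolase that releases acetyl-CoA. In the liver the pathway supplies energy and the acetyl-CoA for ketone bodies during fasting, malonyl-CoA blocks it at Cpt1a, and the nuclear receptor PPARα, encoded by Ppara, is known for raising the transcription of many of its genes.

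RNA integrity differed between the groups and has to be read beside every comparison with HF. Where RNA is shorter, control probe sets for Gapdh and Actb read more signal at the 3' than at the 5' end of the transcript, and this log2 difference, the 3' minus 5' value, was 0.93 ± 0.12 in HFCC, 0.93 ± 0.11 in HFDC, 0.82 ± 0.11 in HFGC, 1.22 ± 0.17 in HF and 0.88 ± 0.06 in ND (SD, n = 3 each). The 3 HF arrays, at 1.08 to 1.40, lay above the other 12, at 0.70 to 1.07, by 0.33 in the mean, with HF replicate 2 highest. The 9 measured hepatocyte markers summed to between 122791 and 135256 in all 15 arrays, and 0 of the 9 were called between HF and ND or between the coffee groups and HF by limma (adjusted p under 0.05). Of 8 stellate and fibroblast markers 4 were higher in HF, with sums of 2283 to 2653 in HF and 1604 to 2009 in ND. Pancreas markers summed to 514 to 676 in HF and 310 to 394 in ND. Only 1 of their 3 genes, Cela1, was higher in the mean, and it was called. Its log2 level was 8.83 to 9.25 in HF and 7.89 to 8.32 in ND. Cpa1 and Cela2a were lower in the mean, and the median log2 difference of the 3 was -0.10. Over the 18193 genes, each by its brightest probe set with the _x_at type taken only where there is no other, 7.89% were called higher and 3.96% lower in HF against ND, and 2.7% and 5.9% in the coffee groups together against HF. Of 8 macrophage, 6 endothelial, 4 bile duct and 3 erythroid markers, 0, 1, 0 and 1 were called in HF against ND. Adipocyte markers (83.2 to 104 in all arrays) and muscle markers (220 to 254) were low in every group, and 0 of these genes were called in HF against ND. In HFCC against ND, pancreas markers summed to 568 to 683 in HFCC and 310 to 394 in ND with 1 of 3 called. Cela1 was at 8.95 to 9.26 in HFCC, and the median log2 difference of the 3 was 0.06. Stellate and fibroblast markers summed to 2075 to 2277 in HFCC and 1604 to 2009 in ND with 0 called. All 8 macrophage markers were higher in the mean with 0 called. Their overlapping sums were 7006, 5859 and 11919 in HFCC and 7698, 7859 and 4974 in ND. The highest was HFCC replicate 3 and the lowest ND replicate 3, while the other HFCC arrays lay below the other ND arrays. The part of other cells in the results below was not tested. In whole liver, fewer cells of a type and less RNA per cell cannot be told apart.

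Promoters of 3 members are given here, since Hadha and Hadhb start close together on opposite strands, Cpt1a had the largest differences between HFDC and HFCC, and Acadm, shown for contrast, varied least. RefSeq entries (GRCm38.p6) of 250 bases before to 50 bases after the start matched 8 of the 10 members. Hadha lies on the minus strand and Hadhb on the plus strand of chromosome 5, with 272 bases between their starts, and both encode subunits of 1 enzyme. Shown 5′ to 3′ are the 250 bases before the start of Hadhb (chr5:30155003-30155252, plus strand), Cpt1a (chr19:3323051-3323300, plus strand) and Acadm (chr3:153944644-153944893, minus strand). The entry of Cpt1a starts 975 bases inside the RefSeq gene, at a later start than the outermost one, and the stretch shown lies within the annotated gene. The other 7 entries begin at the outer start. Capitals mark the nuclear receptor half-site AGGTCA, the GC box GGGCGG and the box CCAAT, on either strand.
Hadhb: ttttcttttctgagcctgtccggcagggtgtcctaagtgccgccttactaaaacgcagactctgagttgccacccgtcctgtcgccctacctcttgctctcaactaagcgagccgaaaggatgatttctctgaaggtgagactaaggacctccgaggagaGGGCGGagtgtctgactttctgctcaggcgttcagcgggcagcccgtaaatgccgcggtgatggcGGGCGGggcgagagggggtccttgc
Cpt1a: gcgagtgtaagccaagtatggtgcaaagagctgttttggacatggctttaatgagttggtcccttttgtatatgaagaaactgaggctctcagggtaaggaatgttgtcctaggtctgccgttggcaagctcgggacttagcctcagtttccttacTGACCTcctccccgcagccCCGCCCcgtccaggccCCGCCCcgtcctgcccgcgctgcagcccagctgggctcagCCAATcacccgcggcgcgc
Acadm: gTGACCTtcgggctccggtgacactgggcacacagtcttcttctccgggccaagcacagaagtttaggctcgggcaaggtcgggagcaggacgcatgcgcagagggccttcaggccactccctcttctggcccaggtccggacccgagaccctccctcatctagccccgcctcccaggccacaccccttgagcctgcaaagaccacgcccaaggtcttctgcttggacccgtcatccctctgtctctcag
AGGTCA, a single half-site of nuclear receptors, was found on either strand of 3 of the 8 member promoters (Cpt1a, Acadm and Acadvl) and in 16.3% of 32851 mouse promoters of the same length. A direct repeat of this half-site with 1 base of any kind between the copies, the form PPARα is known to bind, was found in 0 of the 8 and in 0.0396% of all promoters. GGGCGG, a GC box, was found in 6 of the 8 and in 35.7% of all. The windows of Hadha and Hadhb share 228 bases, and the 1 GC box of Hadha is also 1 of the 4 of Hadhb, so that these are 5 of 7 separate stretches. CCAAT was found in 1 of the 8 (Cpt1a) and in 37.4% of all, and TATAAA in 0 of the 8 and in 13.6% of all. No motif searched contains or overlaps another by design except that the direct repeat holds the half-site, and these matches are letters in a window, not binding sites.

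Between HF and ND the members that changed were split between higher and lower, and of the 6 probe sets that changed between the coffee groups and HF 5 were lower. In HF against ND, 2 of the 20 member probe sets rose and 2 fell, against a background of 10.3% of all probe sets called, 5.98% higher and 4.32% lower (limma, Benjamini-Hochberg adjusted p under 0.05 over all 45037). Their median log2 difference was -0.02, beside -0.01 over all probe sets. In the coffee groups together against HF, 1 rose and 5 fell, against a background of 7.24% called, 2.71% higher and 4.53% lower, with a median of -0.13 in the members and 0.01 over all probe sets. These comparisons share the HF arrays, so that a high or low HF level enters both.

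**Figure D1:**
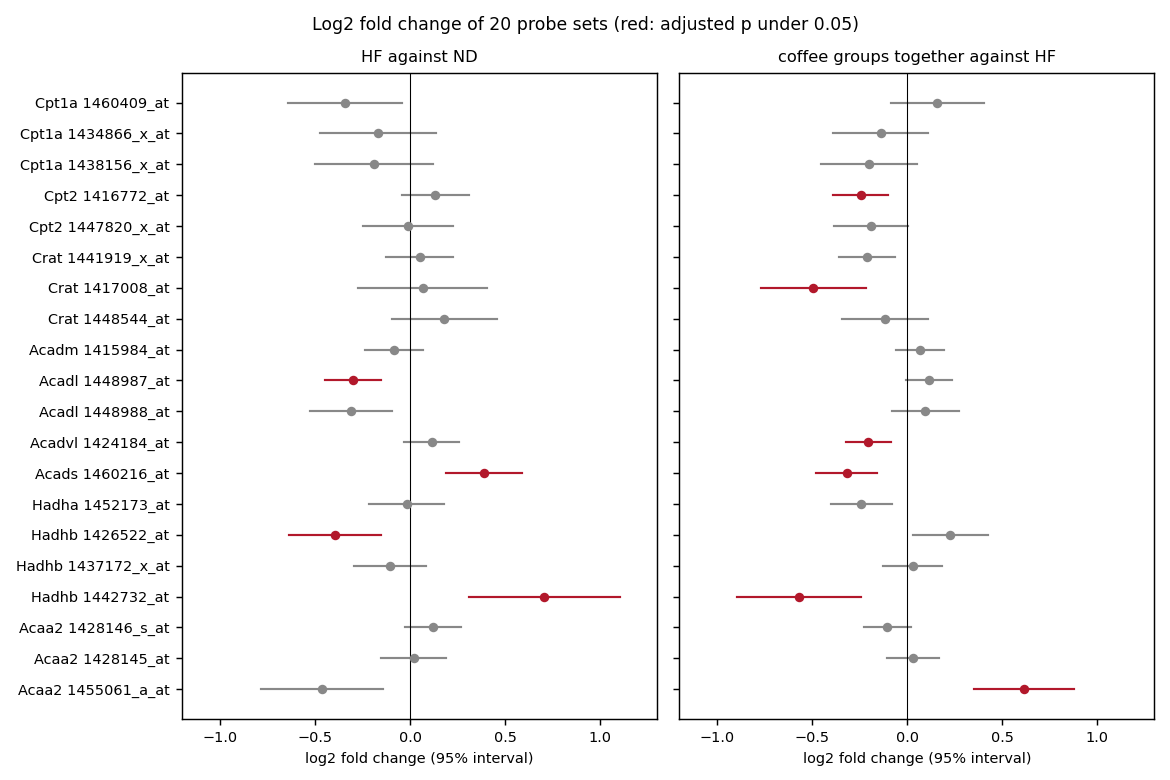
Log2 fold change (horizontal axis, point with its 95% interval) of the 20 member probe sets (rows) in HF against ND on the left and in the coffee groups together against HF on the right, with an adjusted p under 0.05 in red. The 4 red points on the left lie on both sides of 0, and on the right 5 of 6 lie below 0 and Acaa2 1455061_a_at lies above it at 0.61.

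Among the genes of the carnitine shuttle, Cpt1a was lower in HFCC than in ND, while Cpt2 and Crat were lower in the coffee groups together than in HF. 0 of the 8 shuttle probe sets were called in HF against ND. Cpt1a is the step at which entry of long-chain fatty acids is controlled in the liver, and it is measured by 3 probe sets, 2 of them of the _x_at type, which may also bind other transcripts. In HF against ND they gave -0.34, -0.17 and -0.19 (adjusted p = 0.132, 0.49 and 0.442). On 1438156_x_at its intensity was 1031, 898 and 770 in HFCC, 1475, 1075 and 1420 in HFDC, 1101, 1136 and 896 in HFGC, 1341, 1211 and 1135 in HF, and 1655, 1366 and 1211 in ND. Every HFCC array lay below every HFDC, HF and ND array, whereas HFGC overlapped with all other high-fat groups. In log2 the means were 9.80 ± 0.21 in HFCC, 10.36 ± 0.25 in HFDC, 10.02 ± 0.19 in HFGC, 10.26 ± 0.12 in HF and 10.45 ± 0.23 in ND (SD, n = 3 each), an order in which ND, HFDC and HF lie within their spread of each other. Cpt1a fell in HFCC against ND by 0.65 on the log2 scale (95% interval -0.96 to -0.34, limma adjusted p = 0.0361), the only member probe set called in that comparison, where 1.85% of all probe sets were called. It came to -0.56 on 1434866_x_at (adjusted p = 0.0605), whose levels follow those of the first probe set with r = 0.97 over 15 arrays and 0.94 within groups. On the brightest probe set, 1460409_at, the difference was -0.34 (95% interval -0.64 to -0.04, adjusted p = 0.256), and its arrays overlapped. With the 3' minus 5' covariate the differences were -0.67 on 1438156_x_at (adjusted p = 0.031), -0.58 on 1434866_x_at (adjusted p = 0.0555) and -0.30 on 1460409_at (adjusted p = 0.279). The call of 1438156_x_at was lost when ND replicate 1, ND replicate 2, HFCC replicate 2 or HFCC replicate 3 was left out. Over all arrays left out in turn its difference ran from -0.75 to -0.53 and the adjusted p up to 0.131. This call was also lost with an offset of 32 (-0.63, adjusted p = 0.0602) and with the compared groups alone (-0.65, adjusted p = 0.104).

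Cpt2, the inner enzyme of the shuttle, had intensities on 1416772_at of 2497, 2718 and 2542 in HFCC, 3029, 2827 and 2543 in HFDC, 2631, 2584 and 2338 in HFGC, 3019, 3279 and 3044 in HF, and 2948, 2988 and 2598 in ND. All HFCC and HFGC arrays lay below all HF arrays, and 1 HFDC array reached the HF range. It fell in the coffee groups together against HF by 0.24 on the log2 scale (95% interval -0.39 to -0.10, limma adjusted p = 0.0427). The dim probe set 1447820_x_at, below the median level of all probe sets, gave -0.19 (adjusted p = 0.229). Crat, which moves acetyl and other short acyl groups between CoA and carnitine, had intensities on 1417008_at of 320, 337 and 305 in HFCC, 473, 390 and 271 in HFDC, 345, 341 and 329 in HFGC, 495, 514 and 439 in HF, and 562, 435 and 397 in ND. HFCC and HFGC were tightly grouped and lay below every HF and ND array, while the HFDC arrays spread from the lowest value of all 15 to within the HF range. It fell in the coffee groups together against HF by 0.49 on the log2 scale (95% interval -0.77 to -0.22, adjusted p = 0.0344). The other probe sets of Crat did not pass, and 1441919_x_at gave -0.21 (adjusted p = 0.0723) and 1448544_at -0.12 (adjusted p = 0.576). Without HF replicate 2 the values were -0.21 for Cpt2 (adjusted p = 0.24) and -0.45 for Crat (adjusted p = 0.198), so that the sizes changed little and both calls were lost. The 3' minus 5' value had r = 0.68 with Cpt2 and 0.49 with Crat over 15 arrays, and as a covariate it left -0.15 (adjusted p = 0.707) and -0.33 (adjusted p = 0.67).

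**Figure D2:**
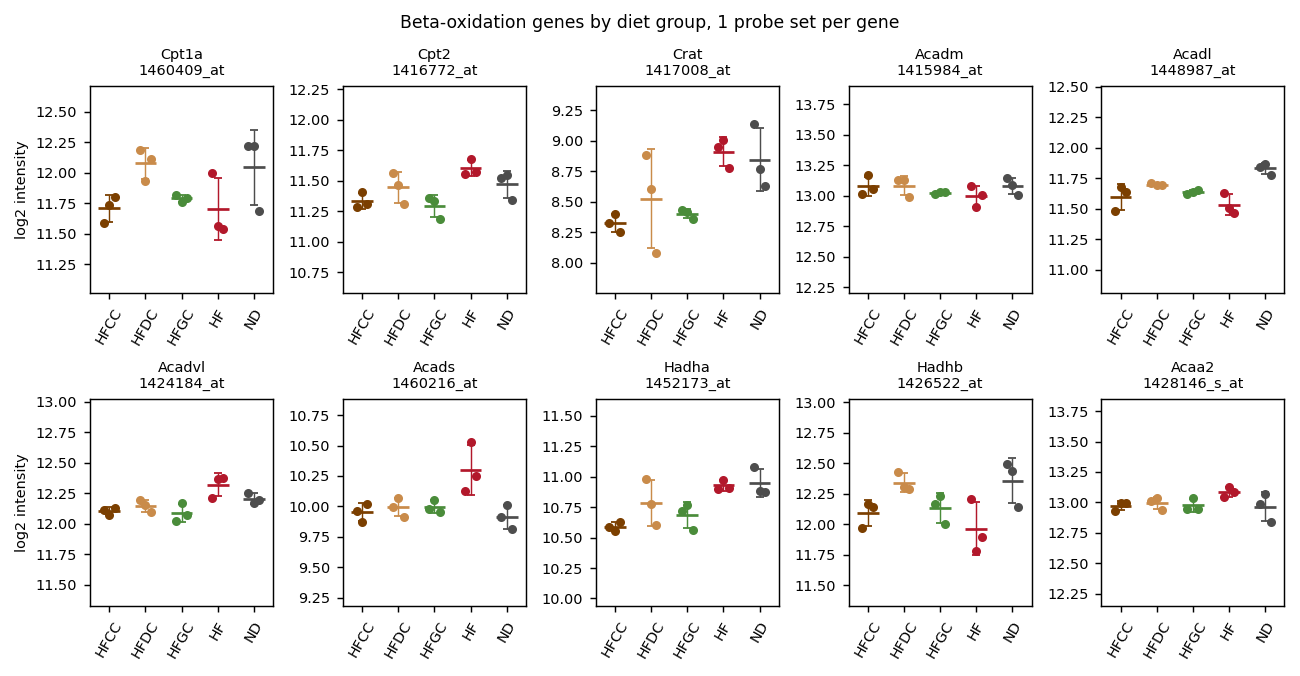
Log2 intensity (vertical axis, same span in each panel) of 1 probe set for each of the 10 members, the brightest that does not end in _x_at, with 1 point per array, the group mean as a line and the SD as a bar, and the groups HFCC, HFDC, HFGC, HF and ND along the horizontal axis. All 3 HF arrays lie above the ND arrays for Acads and below them for Acadl, and the 3 HFDC arrays of Crat are spread widely.

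Of the 4 acyl-CoA dehydrogenases, Acads was higher and Acadl lower in HF than in ND, and Acadm, which varied least, was called in none of the 11 comparisons. Acads, which acts on short-chain acyl-CoA, had intensities of 997, 937 and 1038 in HFCC, 1021, 1073 and 967 in HFDC, 1012, 1064 and 995 in HFGC, 1118, 1475 and 1218 in HF, and 963, 1033 and 901 in ND. All 3 HF arrays lay above the other 12 arrays, with HF replicate 2 farthest, and the coffee groups lay within the ND range or just above it. Acads rose in HF against ND by 0.39 on the log2 scale (95% interval 0.19 to 0.59, limma adjusted p = 0.0185) and fell in the coffee groups together against HF by 0.32 (95% interval -0.48 to -0.16, adjusted p = 0.0233). The 3' minus 5' value moved with Acads (r = 0.78 over 15 arrays, 0.48 within groups), and as a covariate it left 0.23 in HF against ND (adjusted p = 0.459) and -0.17 in the coffee groups against HF (adjusted p = 0.688). Without HF replicate 2 the differences were 0.28 (adjusted p = 0.0813) and -0.21 (adjusted p = 0.195).

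Acadl, the long-chain acyl-CoA dehydrogenase, had intensities on 1448987_at of 2853, 3279 and 3177 in HFCC, 3342, 3311 and 3308 in HFDC, 3152, 3187 and 3228 in HFGC, 3163, 2900 and 2820 in HF, and 3664, 3743 and 3516 in ND. Each of the 12 high-fat arrays, with or without coffee, lay below each ND array. Acadl fell in HF against ND by 0.30 on the log2 scale (95% interval -0.45 to -0.15, limma adjusted p = 0.0156). The differences of the coffee groups from ND were -0.23 in HFCC (adjusted p = 0.104), -0.13 in HFDC (adjusted p = 0.432) and -0.19 in HFGC (adjusted p = 0.218), none of which passed. Without HF replicate 2 the difference between HF and ND was -0.29 (adjusted p = 0.0609) and without HF replicate 3 -0.27 (adjusted p = 0.0653), and with the 3' minus 5' covariate -0.19 (adjusted p = 0.413). The second probe set of Acadl, 1448988_at, was dim, at 15.7 to 24.1 over all arrays, and gave -0.31 in HF against ND (adjusted p = 0.0645).

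Acadvl, which takes the longest chains, had intensities of 4429, 4311 and 4476 in HFCC, 4688, 4549 and 4365 in HFDC, 4166, 4600 and 4311 in HFGC, 4742, 5285 and 5319 in HF, and 4880, 4597 and 4685 in ND. All 9 coffee arrays lay below all 3 HF arrays, although HFDC replicate 1 came close to HF replicate 1, and the ND arrays overlapped with both. Acadvl fell in the coffee groups together against HF by 0.21 on the log2 scale (95% interval -0.32 to -0.09, limma adjusted p = 0.0382), one of 3 member probe sets with all coffee arrays below HF, where 4.82% of all probe sets had that order. HF against ND gave 0.11 (adjusted p = 0.306). The call was lost without HF replicate 2 (-0.18, adjusted p = 0.213) and without HF replicate 3 (-0.18, adjusted p = 0.182). Acadvl had r = 0.73 with the 3' minus 5' value over 15 arrays, and with that covariate the difference was -0.13 (adjusted p = 0.683). Acadm, the medium-chain enzyme, ranged over 0.26 on the log2 scale in all 15 arrays, the narrowest range of the 20 probe sets, with means of 13.08 ± 0.08 in HFCC, 13.08 ± 0.08 in HFDC, 13.03 ± 0.01 in HFGC, 13.00 ± 0.09 in HF and 13.08 ± 0.07 in ND (SD, n = 3 each).

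Hadha, Hadhb and Acaa2 complete the cycle, and here the probe sets of 1 gene did not agree in direction. Hadha, the alpha subunit of the trifunctional protein with the hydratase and the hydroxyacyl-CoA dehydrogenase, had intensities of 1539, 1504 and 1584 in HFCC, 2020, 1752 and 1556 in HFDC, 1681, 1743 and 1513 in HFGC, 1909, 2014 and 1923 in HF, and 2169, 1891 and 1876 in ND. HF and ND overlapped and differed by -0.02 on the log2 scale (limma adjusted p = 0.922), whereas every HFCC and HFGC array lay below every HF and ND array. HFCC against ND gave -0.36 (95% interval -0.55 to -0.16, adjusted p = 0.0649) and HFCC against HF -0.34 (95% interval -0.53 to -0.14, adjusted p = 0.0876), neither of which passed. In HFCC against ND the value was -0.38 with the 3' minus 5' covariate, which passed (adjusted p = 0.0446). In HFCC against HF it was -0.21 with the covariate (adjusted p = 0.728).

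Hadhb, the beta subunit with the thiolase of the same protein, is measured by 3 probe sets. On the brightest, 1426522_at, the intensities were 3998, 4601 and 4509 in HFCC, 5507, 5071 and 4997 in HFDC, 4585, 4816 and 4098 in HFGC, 4713, 3522 and 3815 in HF, and 5759, 5536 and 4521 in ND. HF replicate 1 and ND replicate 3 overlapped, and the HFDC arrays lay above all HF and HFCC arrays. This probe set fell in HF against ND by 0.40 on the log2 scale (95% interval -0.64 to -0.15, limma adjusted p = 0.0397). On the dim probe set 1442732_at the intensities were 102, 69.3 and 57.3 in HFCC, 78.5, 82.9 and 69.5 in HFDC, 71.4, 59.1 and 76.0 in HFGC, 97.7, 143 and 90.8 in HF, and 67.0, 69.6 and 62.8 in ND. All HF arrays lay above all ND arrays, HF replicate 2 by far, and the HFCC arrays spread from the lowest value to above HF replicate 1. This one rose in HF against ND by 0.71 (95% interval 0.31 to 1.10, adjusted p = 0.0284) and fell in the coffee groups together against HF by 0.57 (95% interval -0.89 to -0.25, adjusted p = 0.0368). Without HF replicate 2 these values were 0.50 (adjusted p = 0.127) and -0.37 (adjusted p = 0.271). With the 3' minus 5' covariate they were 0.28 (adjusted p = 0.646) and -0.16 (adjusted p = 0.857). For 1426522_at the values in HF against ND were -0.31 (adjusted p = 0.162) without HF replicate 2, -0.36 (adjusted p = 0.123) without HF replicate 3 and -0.23 (adjusted p = 0.568) with the covariate. The third probe set, 1437172_x_at, gave -0.11 and 0.03 in these comparisons (adjusted p = 0.484 and 0.869). The first and the second of them ran against each other over the 15 arrays (r = -0.59), and their correlations with the 3' minus 5' value were -0.55 and 0.82, so that no single direction can be given for Hadhb.

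Acaa2, the thiolase for medium-chain products, showed the same kind of split. On 1455061_a_at the intensities were 3666, 4784 and 4977 in HFCC, 4455, 5084 and 4782 in HFDC, 4682, 4546 and 4911 in HFGC, 3524, 2518 and 3133 in HF, and 4546, 4898 and 3276 in ND. All 9 coffee arrays lay above all HF arrays, where HF replicate 2 was lowest, and ND replicate 3 fell within the HF range. This probe set rose in the coffee groups together against HF by 0.61 on the log2 scale (95% interval 0.35 to 0.88, limma adjusted p = 0.0132). It rose by 0.65 in HFDC (adjusted p = 0.0385) and by 0.64 in HFGC (adjusted p = 0.0405), the single member call in each, against backgrounds of 2.72% and 2.58%. In HFCC, where 0 members and 0.5% of all probe sets were called, the value was 0.55 (adjusted p = 0.0877). The other probe sets of Acaa2, 1428146_s_at and 1428145_at, gave -0.10 and 0.03 for all coffee mice against HF (adjusted p = 0.308 and 0.834). The 3' minus 5' value ran against 1455061_a_at with r = -0.89 over 15 arrays and -0.82 within groups, against 0.49 and -0.26 over 15 arrays for the other probe sets. With that value as a covariate the difference of 1455061_a_at was 0.14 (adjusted p = 0.775), and without HF replicate 2 it was 0.48 (adjusted p = 0.126).

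**Figure D3:**
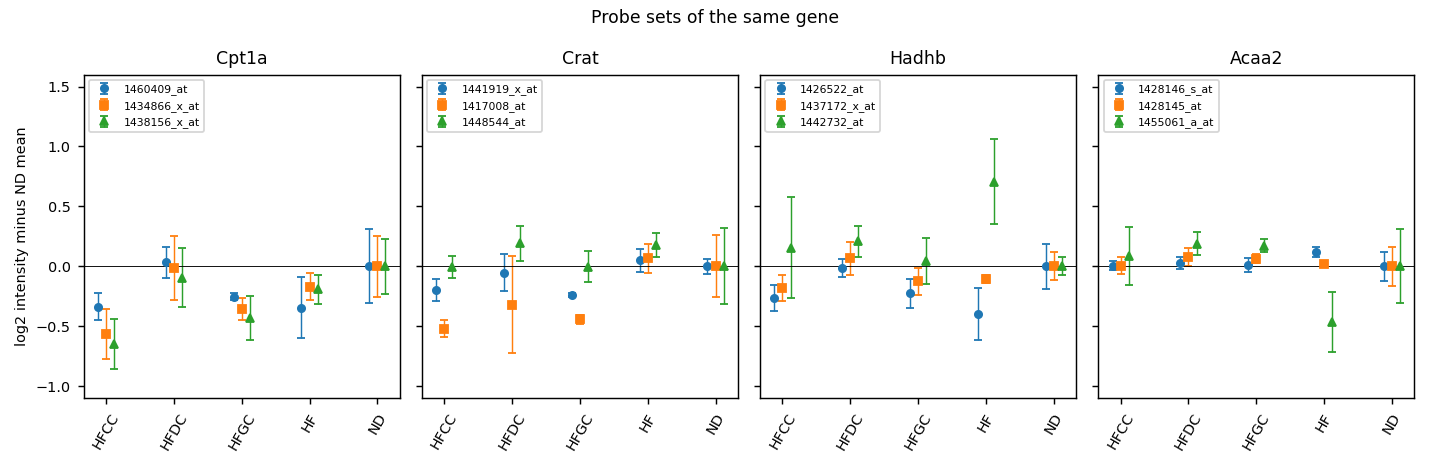
Group mean (points) and SD (bars, n = 3) of the log2 intensity of each probe set of Cpt1a, Crat, Hadhb and Acaa2, minus the ND mean of that probe set, for the groups HFCC, HFDC, HFGC, HF and ND. All 3 probe sets of Cpt1a lie below 0 in HFCC, whereas in HF Hadhb 1442732_at is high where 1426522_at is low, and Acaa2 1455061_a_at is low where 1428146_s_at is not.

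The calls that involve HF were lost with the 3' minus 5' covariate and without HF replicate 2, and some of them without HF replicate 3. With the covariate, 0 of the 20 probe sets were called in HF against ND and 0 in the coffee groups together against HF, and without HF replicate 2 the counts were also 0 and 0. Without HF replicate 1, the HF array nearest to the others in 3' minus 5' value, they were 7 and 6, and without HF replicate 3 they were 2 and 0. Over all probe sets the calls without HF replicate 2 numbered 1507 in HF against ND and 4 in the coffee groups together, against 4635 and 3262 with all arrays. Across all runs with 1 array left out they reached up to 5560 and 4826. The calls of all probe sets thus moved as well as those of the members. The share of all probe sets called with the covariate is not given here. At an unadjusted p under 0.05, 7 member probe sets passed in HF against ND, 9 in the coffee groups together against HF and 11 in HFCC against HF. Of all probe sets 26.5%, 22.3% and 15.5% passed in these comparisons. The 3' minus 5' value was itself highest in HF, so that in these arrays it and the diet cannot be told apart.

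**Figure D4:**
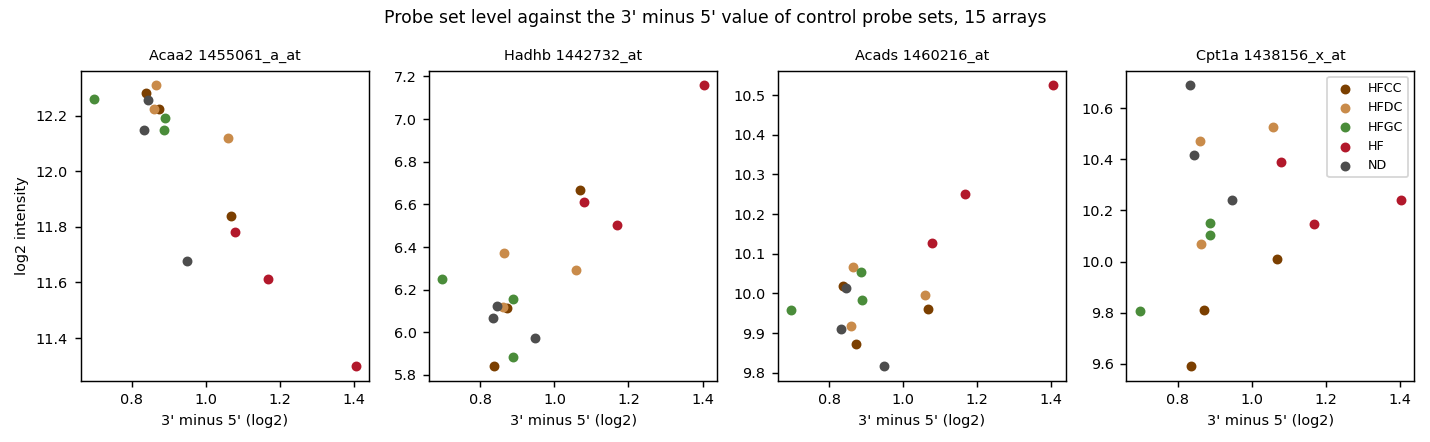
Log2 intensity of 4 member probe sets against the log2 3' minus 5' difference of the Gapdh and Actb control probe sets, 1 point per array, coloured by group. Acaa2 1455061_a_at falls and Hadhb 1442732_at and Acads rise along the axis, with HF replicate 2 at 1.40, while Cpt1a 1438156_x_at shows little relation (r = 0.22 over 15 arrays).

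Differences between the coffee diets did not pass the test for any member. All 20 probe sets were higher in HFDC than in HFCC, with a median log2 difference of 0.15, where 54.5% of all probe sets were higher and the median of all was 0.01. In HFGC against HFDC 18 of the 20 were lower, with a median of -0.12, where 51.4% of all probe sets were lower, and in HFGC against HFCC 15 of the 20 were higher, with a median of 0.04, where 53.3% of all probe sets were higher. Each of these 3 pairs shares a group with the others, and several probe sets measure the same gene, so that the counts of one direction are descriptions. By limma 0 members were called in the 3 pairs, where 2, 1 and 0 of all 45037 probe sets were called (0.00444%, 0.00222% and 0%). At an unadjusted p under 0.05 the members numbered 5 in HFDC against HFCC, 1 in HFGC against HFCC and 3 in HFGC against HFDC, where 7.42%, 3.54% and 5.73% of all probe sets passed.

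Cpt1a had the highest differences between HFDC and HFCC, at 0.55 on 1438156_x_at (95% interval 0.24 to 0.86, limma adjusted p = 0.279), 0.55 on 1434866_x_at (0.24 to 0.85, adjusted p = 0.276) and 0.37 on 1460409_at (0.07 to 0.67, adjusted p = 0.557). On each of the 3 probe sets every HFDC array lay above every HFCC array. On 1460409_at, the brightest, the intensities were 4663, 3918 and 4434 in HFDC and 3074, 3414 and 3577 in HFCC. Hadhb followed with 0.25 on 1426522_at (0.01 to 0.49, adjusted p = 0.662) and 0.25 on 1437172_x_at (0.05 to 0.44, adjusted p = 0.532), also without overlap. Member probe sets whose arrays did not overlap numbered 6 with HFDC above HFCC, beside 7.76% of all probe sets, and 4 with HFGC below HFDC, beside 6.23%. For Acadm the interval of HFDC minus HFCC ran from -0.15 to 0.16, for Acads from -0.16 to 0.24 and for Acadvl from -0.10 to 0.19, so that differences of that size were not resolved with 3 mice in each group.

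Set against ND, 1 member probe set passed in HFCC, that of Cpt1a given above. In a fit over genes, with probe sets averaged where a gene had several, 3 genes passed. In HFCC 15 of the 20 member probe sets had a mean below that of ND, where 53% of all probe sets did, with a median of -0.19, and 10 of them did not overlap with ND, beside 9.86% of all probe sets in that order. The 10 were 2 probe sets of Cpt1a, 1 of Cpt2 (1447820_x_at), 2 of Crat, both of Acadl, and those of Acadvl, Hadha and Hadhb (1437172_x_at). Cpt2 1447820_x_at and Acadl 1448988_at are dim, and the brightest probe sets of Cpt1a, Cpt2 and Hadhb overlapped with ND. In HFGC 15 of 20 had a mean below ND as well, where 51.3% of all did, with a median of -0.15 and 7 not overlapping, beside 8.02% of all. In HFDC 11 of 20 had a mean below ND, beside 49.6% of all, with a median of -0.01 and 1 not overlapping, beside 8.22% of all. These 3 comparisons share the ND arrays. By limma 0 members were called in HFDC against ND and 0 in HFGC against ND (backgrounds of 0.44% and 0.966%), with 0 and 6 at an unadjusted p under 0.05, and 10 in HFCC against ND, where 13.2%, 13.9% and 15.8% of all probe sets passed. Averaged over the probe sets of a gene and adjusted over genes, 3 of the 10 members were lower in HFCC than in ND. The background was 0.956% of all genes called lower. The 3 were Cpt1a at -0.51 (limma adjusted p = 0.0466), Acadl at -0.29 (adjusted p = 0.0233) and Hadha at -0.36 (adjusted p = 0.0479). Hadha has 1 probe set, so its difference was the one given above and only the set of features fitted changed. The average of Acadl includes the dim 1448988_at. By the brightest probe set of each gene, 0 members were called in HFCC against ND.

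The members varied together between mice of 1 group in most pairs. Over 1 probe set per gene, the brightest that is not of the _x_at type (1417008_at for Crat, although 1441919_x_at is brighter), the deviations from the group means correlated above 0 in 36 of 45 pairs of genes, with a median r of 0.37 and a range of -0.44 to 0.85 over the 15 arrays. Cpt1a and Hadhb (r = 0.85), Crat and Hadha (r = 0.85) and Cpt2 and Crat (r = 0.76) were highest, whereas Acadl and Acadvl (r = -0.44) and Cpt1a and Acadvl (r = -0.36) were lowest. Hadha and Hadhb, whose starts lie 272 bases apart, had r = 0.39 within groups and 0.26 over all arrays. These values describe 15 arrays that also share differences in RNA length, and they carry no test.

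Around the members, 42 other genes of fatty acid oxidation were measured in 6 lists, each by its brightest probe set under the same rule. Of the 42, 6 rose and 2 fell in HF against ND, and 4 rose and 7 fell in the coffee groups together against HF, with medians of 0.07 and -0.11. Over all genes by the same rule 7.89% rose and 3.96% fell in HF against ND, and 2.7% rose and 5.9% fell in the coffee groups together against HF. Ppara rose in HF against ND by 0.92 on the log2 scale (limma adjusted p = 0.00171) and fell in the coffee groups together against HF by 0.66 (adjusted p = 0.00787), with levels of 10.37 ± 0.10 in HFCC, 10.47 ± 0.14 in HFDC, 10.22 ± 0.18 in HFGC, 11.01 ± 0.25 in HF and 10.09 ± 0.22 in ND (log2, SD, n = 3 each). All HF arrays were above all others. Without HF replicate 2, Ppara, Acad10, Acad12 and Slc27a5 were the 4 of the 8 that still passed in HF against ND, Ppara with 0.79 (adjusted p = 0.0115), whereas Ppara was at -0.53 in the coffee groups against HF (adjusted p = 0.0891) and at 0.52 in HF against ND with the 3' minus 5' covariate (adjusted p = 0.166). Of the coactivators and partners, Ppargc1b had lower levels in the combined coffee groups (-0.51, adjusted p = 0.0111), as did Rxra (-0.26, adjusted p = 0.0272), and the deacetylase Sirt3 was higher in HF than in ND (0.43, adjusted p = 0.0116). Lpin1, a phosphatidate phosphatase that also acts as a coactivator, was lower in HF than in ND (-1.08, adjusted p = 0.0363). With the 3' minus 5' covariate Sirt3 was at 0.40 (adjusted p = 0.24) and Lpin1 at -0.69 (adjusted p = 0.525) in HF against ND. Slc27a5 and Hsd17b10, described below, were at 0.29 (adjusted p = 0.231) and 0.46 (adjusted p = 0.389) in that fit, so none of these passed.

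Among 12 other enzymes of mitochondrial beta-oxidation 3 were higher in HF than in ND, which were Acad10 (0.77, limma adjusted p = 0.00152), Acad12 (0.63, adjusted p = 0.00143) and Hsd17b10 (0.50, adjusted p = 0.0414). Against HF, 3 were lower in the coffee groups together, which were Acad10 (-0.50, adjusted p = 0.00894), Acad12 (-0.43, adjusted p = 0.00767) and Slc25a20, the carrier that exchanges acylcarnitine for carnitine between the steps of Cpt1a and Cpt2 (-0.30, adjusted p = 0.0375). Acad10 and Acad12 resemble acyl-CoA dehydrogenases in sequence, and both kept their call between HF and ND without HF replicate 2 (0.69, adjusted p = 0.0105, and 0.62, adjusted p = 0.00935). With the 3' minus 5' covariate neither passed in HF against ND (0.71, adjusted p = 0.111, and 0.54, adjusted p = 0.125). Slc25a20, with the same covariate, was at -0.12 in the coffee groups together against HF (adjusted p = 0.797). Of 3 genes that carry the electrons of the acyl-CoA dehydrogenases onward, 1 passed in each comparison, Etfdh lower in HF than in ND (-0.47, adjusted p = 0.0165) and Etfa higher in the coffee groups together than in HF (0.33, adjusted p = 0.021). With the covariate these were -0.18 (adjusted p = 0.574) and 0.06 (adjusted p = 0.879). Hadh, Decr1 and Etfb gave 0.21, 0.00 and 0.07 in HF against ND and did not pass.

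In fatty acid activation and binding, Acsl3, a long-chain acyl-CoA synthetase, was higher in HFCC and HFGC than in HF, while HFDC was near HF. Its log2 level was 8.49 ± 0.26 in HFCC, 7.42 ± 0.50 in HFDC, 8.33 ± 0.35 in HFGC, 7.46 ± 0.19 in HF and 6.81 ± 0.04 in ND (SD, n = 3 each). Acsl3 rose in HFCC by 1.68 against ND (limma adjusted p = 0.000975) and by 1.03 against HF (adjusted p = 0.0481). In HFGC it rose by 1.51 against ND (adjusted p = 0.00343) and by 0.87 against HF (adjusted p = 0.044). HF against ND gave 0.64 (adjusted p = 0.0648), which did not pass. The calls of Acsl3 in HFCC and in HFGC against HF were not examined with arrays left out or with the 3' minus 5' covariate. Slc27a5, a liver acyl-CoA synthetase that also acts on bile acids, was higher in HF than in ND (0.32, adjusted p = 0.00932), and Fabp1, the abundant fatty acid binding protein of hepatocytes, gave -0.01 (adjusted p = 0.977). Of the genes that set malonyl-CoA, the inhibitor of Cpt1a, Mlycd was lower in the coffee groups together than in HF (-0.25, adjusted p = 0.0214). Prkaa1, a catalytic subunit of AMP-activated protein kinase, was higher there (0.51, adjusted p = 0.0144), on a dim probe set below the median level. Of the 6 genes in this list, which includes Cpt1c, 0 were called between HF and ND. Cpt1c, the CPT1 form of the nervous system, gave 0.04 in HF against ND (adjusted p = 0.811). Without HF replicate 2, 10 of the 11 genes called between the coffee groups together and HF (all but Rxra, not examined there) had an adjusted p between 0.082 and 0.258, and with the 3' minus 5' covariate between 0.497 and 0.879. Neither gene measured for ketone body synthesis, Acat1 or Bdh1, was called in HF against ND or in the coffee groups together against HF.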

How the data were processed

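The authors labelled liver RNA with biotin and summarised each array by RMA (background correction, normalization between arrays and 1 value per probe set), and deposited the resulting intensities without taking logarithms, with array medians of 48.5 to 50.0. Which RMA program was used is not given in the sources used here. Log2 was taken of each value with no further normalization. All 45037 probe sets that are not controls and all 15 arrays entered 1 model with 5 group means (limma 3.58.1 in R 4.3.3, lmFit and eBayes, 10 residual degrees of freedom), with Benjamini-Hochberg adjustment over all probe sets within a comparison and a call at an adjusted p under 0.05. The procedure was tested on simulated data. The member genes and the lists were chosen with earlier results of these data known. Named are all members with all their probe sets, and of each other list of fatty acid oxidation up to 4 called genes with the largest changes, up to 3 uncalled genes of high level, and Cpt1c. Rxra was named after its value was seen. P-values rest on the spread between mice within groups, 1 array each, shared over the 5 groups and drawn by eBayes toward that of all probe sets. The 3 mice of each group limit the precision. Alternatives concerned the probe sets used, normalization, an offset of 32, the groups fitted, the replicate number, the variance model, the 3' minus 5' covariate, the call rule and each array left out in turn.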

Additional observations from a re-analysis of the deposited data

How the results depend on the processing

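The counts below are of the 20 member probe sets called, and where probe sets were reduced to genes, of the 10 member genes. With all arrays they were 4 in HF against ND, 0 in HFCC, 1 in HFDC and 1 in HFGC against HF, 6 in the coffee groups together against HF, 1 in HFCC against ND, and 0 in HFDC and in HFGC against ND and between coffee groups. In HF against ND, probe sets averaged per gene gave 2, fitting only the groups compared 0, the 3' minus 5' covariate 0, and a minimum of 1.5-fold 1. In the coffee groups together against HF, averaging per gene gave 2, cyclic loess 3, the covariate 0, and a minimum of 1.5-fold 1. In HFDC and in HFGC against HF, the brightest probe set of each gene, averaging per gene, the compared groups alone and the covariate each gave 0 and 0, and in HFGC against HF probe sets at or above the median level gave 4, an offset of 32 gave 2 (Cpt2 1416772_at and Acadvl, both lower, while Acaa2 1455061_a_at was lost with an adjusted p of 0.0546), and eBayes with trend and robust gave 2. In HFCC against ND, the brightest probe set of each gene and the compared groups alone gave 0 and 0, averaging per gene 3, an offset of 32 1 (Acadl 1448987_at in place of Cpt1a 1438156_x_at), trend and robust 2, and the covariate 2. At an adjusted p under 0.10 the counts were 4 in HFCC, 3 in HFDC and 7 in HFGC against HF, and 4 in HFCC against ND. These counts are given without the share of all probe sets called under each setting.

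Leaving out each array in turn, the counts ran from 0 to 7 in HF against ND (0 without HF replicate 2), from 0 to 3 in HFCC against HF, from 0 to 4 in HFDC against HF, from 0 to 4 in HFGC against HF, from 0 to 7 in the coffee groups together against HF (0 without HF replicate 2 and without HF replicate 3), and from 0 to 3 in HFCC against ND, and they stayed at 0 in HFDC and HFGC against ND and in the 3 pairs of coffee groups. Calls over all probe sets moved in the same runs. They ran from 1507 to 5560 in HF against ND and from 4 to 4826 in the coffee groups together against HF. Against HF they ran from 1 to 2685 in HFCC, from 3 to 3460 in HFDC and from 9 to 3315 in HFGC. In HFCC against ND they ran from 287 to 910. Replicate numbers are shared between groups, but arrays of the same number did not deviate together (median r of 0.04, over 0.1 in 6 of 30 pairs, and 5 of 15 arrays closest to their own number), so the numbers do not pair the mice. With the replicate number as a block the counts were 4 in HF against ND, 5 in the coffee groups together against HF, 0 in HFDC and 1 in HFGC against HF, and 2 in HFCC against ND. The 1 in HFGC was Cpt2 1416772_at, lower (adjusted p = 0.0472), and the call of Acaa2 1455061_a_at was lost in HFGC (adjusted p = 0.0575) and in HFDC (adjusted p = 0.0554).

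Of 5148 values of single probe sets under these alternatives, 104 lost a call, 46 gained one and 1 reversed. The other 4997 kept their direction and their side of the threshold or had no call to lose. Most belong to probe sets that had not been called to begin with, so 4997 does not measure how stable the calls were. In the coffee groups together against HF, where 6 probe sets had been called, 49 values lost a call. In HF against ND, where 4 had been called, 24 did. In HFGC and in HFDC against HF and in HFCC against ND, with 1 called in each, 14, 11 and 6 did. The reversal was Hadhb 1426522_at in HF against ND, which became 0.068 (adjusted p = 0.628) when the 3 probe sets of Hadhb were averaged. That average includes 1442732_at, which rose. Where no call was made, 168 values changed sign. Cpt2 1447820_x_at and Acadl 1448988_at lie below the median level of all probe sets, where signal over background limits what can be seen, and the causes of the other changes were not tested.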
